A study of Drosophila melanogaster with 4 samples.

Results

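A set of 30 transcripts had a probe that was called detected in dSETD3 KO virgin flies and not in control virgin flies. They were selected on the array readings themselves, from 16028 transcripts with a FlyBase transcript identifier (FBtr) on the array. A probe is a short oligonucleotide that captures labelled RNA matching its sequence, and it is annotated to 1 transcript. It was taken when the scanner software called it well above background on both dSETD3 KO arrays and on neither control array. Its background-corrected signal also had to be at least 20 on both dSETD3 KO arrays. This signal is a fluorescence intensity in arbitrary units. Probes of genes whose symbols start with Cyp, Gst, Vm (vitelline membrane) or Cp7F (some of the chorion genes) were left out. This removed 3 probes of 2 transcripts (Cyp4p2 and Cyp4e3). The 30 transcripts were seen by 32 probes of 21752. Because the readings of these arrays chose the members, the differences between genotypes given for them are descriptions and carry no test.

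RNA was taken with Trizol from whole female virgins that were 5 days old. There were 2 samples of the isogenic control strain, w[1118], and 2 of w[1118];;CG32732-/- flies, called dSETD3 KO, which lack the gene CG32732 (dSETD3). In these the first exon of CG32732 had been replaced by a dsRED expression cassette with CRISPR-Cas9, so the KO flies also carry dsRED, and the allele had been crossed back to w[1118] repeatedly. The KO flies are 1 allele from 1 such construction, so remaining differences in genetic background, the dsRED cassette and the loss of dSETD3 cannot be told apart. Each sample was hybridised to its own 1-colour array. The samples are described as biological replicates, and with 2 per genotype their number limits the precision. In whole flies, a transcript present in fewer cells and less of it per cell cannot be told apart.

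dSETD3 is the fly relative of SETD3, an enzyme with a SET domain that in mammals methylates a histidine of actin. The transcripts of the set with a gene name do not belong to a single known pathway. They include an aminoacyl-tRNA synthetase, which loads a tRNA with its amino acid, a complement-like immune protein, a member of the ionotropic receptor family of chemosensory proteins and proteins named for serine protease domains. Each probe reads a short stretch of a transcript, so where a transcript had other probes on the array their readings are given beside the member.

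Both probes of CG32732 followed the labels. Their signals were 7810 and 8000 on the control arrays and 9.87 and 4.99 on the dSETD3 KO arrays for A_09_P016351, and 1090 and 1150 against 3.47 and 3.50 for A_09_P201260, with neither probe well above background on a dSETD3 KO array. The arrays shared a slide and a scan day, with control at positions 1 and 2 and dSETD3 KO at positions 3 and 4, so position and genotype cannot be told apart. An array detected between 62.9% and 66.2% of its 32162 probes, and the lowest signal so flagged was between 12.2 and 13.9. The 75th percentile of the signal was 1630 and 1766 on the control arrays and 1662 and 1179 on the dSETD3 KO arrays, so dSETD3 KO replicate 2 was the dimmest array. The yolk protein genes Yp1 and Yp3, markers of females, had high signals on every array, from 35900 to 46800 for Yp1 and from 83000 to 117000 for Yp3. Of the male, ovary, fat body and gut markers sought, none had a named probe and they were not analysed here. Some markers of other tissues differed between the genotypes. Of 11 probes of the muscle genes Act88F, Mhc, fln and Mlc2, limma called 10 lower in dSETD3 KO, with a median log2 difference of -1.10. Of 4 probes of the photoreceptor channel gene trpl it called 1 lower, at -2.61 ± 0.09. The others, not called, had -0.18, -0.34 and -0.83. Over all tested probes 16.9% were called lower. The muscle and trpl probes were all named by the list of changed probes, and their part in the detection of the set was not tested.

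Of the FBtr probes, 35 met the detection flags and the minimum signal before the symbols were considered, which is 0.161% of 21752. With the genotypes exchanged, 187 probes of 181 transcripts were detected on both control arrays and on neither dSETD3 KO array, or 0.860%. Detection in control flies alone was therefore the more frequent pattern at a minimum signal of 20. That order turned with the minimum. At a minimum of 50, 13 transcripts had a probe detected only in dSETD3 KO and 7 a probe detected only in control. At a minimum of 100 there were 8 and 2. The deleted gene CG32732, whose loss is part of the genotype, was itself among the control-only transcripts at each of these minimums. With the weaker of the software's flags, which asks only for a positive signal that differs from the local background, the counts were 8 and 7.

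**Figure D1:**
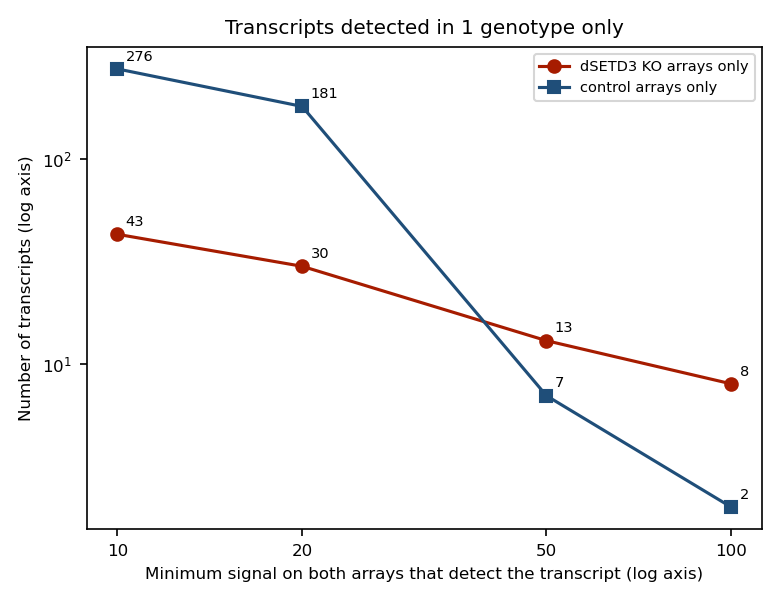
Number of transcripts with a probe detected on both arrays of 1 genotype and on neither array of the other (log axis). The horizontal axis is the minimum signal asked of the arrays that detect the probe (log axis). At a minimum of 20 there are 30 for dSETD3 KO and 181 for control, and at 50 the order is 13 and 7.

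Across the 32 probes the control signals ran from 2.89 to 26.9 with a median of 6.65, and the dSETD3 KO signals from 20.3 to 5023 with a median of 57.6. Since the control arrays did not measure these probes well above background, the difference is given as a lower bound. The control side of the bound was, on each array, the higher of the probe's own signal and the array's floor, which is its lowest signal flagged as well above background, both on the log2 scale and relative to the array's 75th percentile. By this bound 27 probes were at least 2-fold higher in dSETD3 KO, 12 at least 10-fold and 4 at least 50-fold, and for 5 the bound was under 2-fold. These folds depend on the background correction. With normexp correction and an offset of 50, the counts were 16, 5 and 1, and with the second deposited table, whose intensities have no background subtracted, 18, 5 and 1. The fold bounds given for single members below are those of the main signals, and were smaller with both alternatives at all 19 probes recomputed. The median bound was 2.26 on the log2 scale, beside a median difference of 0.02 over all 20916 probes that could be tested. For 24 probes the control signal lay under the floor on both arrays, and the floor alone set the control side of the bound. For the other 8 the probe's own signal was above the floor on at least 1 control array, and their bound lies closer to the measured difference. All 32 passed the filter on dim probes through the dSETD3 KO arrays alone, so a high value there was a condition of being in the set.

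**Figure D2:**
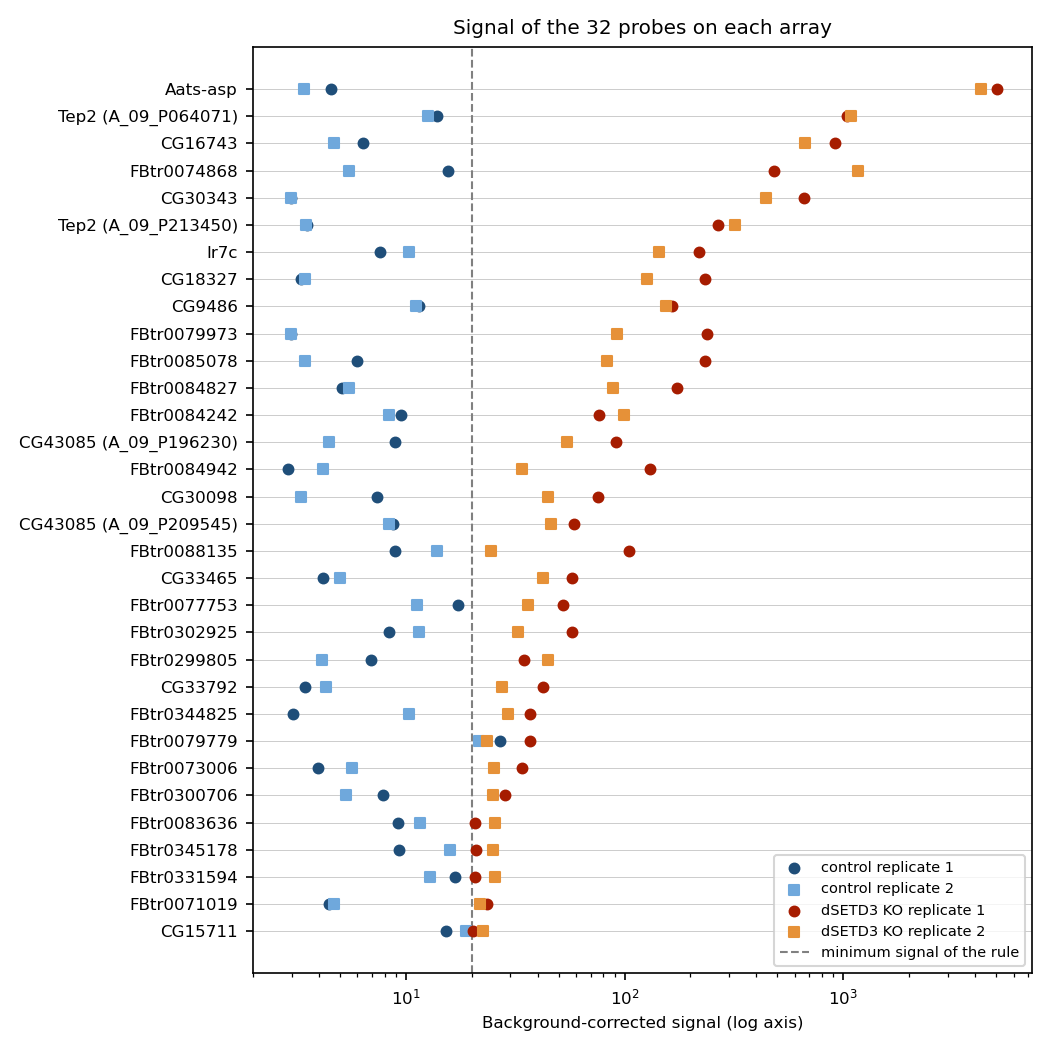
Background-corrected signal (log axis) of each of the 32 probes on the 2 control and 2 dSETD3 KO arrays, 1 point per array, ordered by the mean dSETD3 KO signal. The points of the genotypes are far apart in the upper rows and meet near the minimum signal of 20 (dashed line) in the lower rows, where FBtr0079779 is the 1 probe whose groups overlap.

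A gene symbol could be given to 12 of the 30 transcripts (14 probes). Symbols came from 2 supplementary lists of the study, a list of array probes held here only in its first part, which named 3 of them (CG18327, CG33792 and CG15711), and a list of probes that the study selected for their change, which named the other 9. These 9 have names because they changed. The other 18 transcripts have none here, and whether any of them is a Cyp, Gst or eggshell gene was not tested. Each group below therefore covers the named part of the set alone.

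Aats-asp (FBtr0087784, now AspRS) codes for the aspartyl-tRNA synthetase of the cytoplasm, which attaches aspartate to its tRNA for protein synthesis. Its probe read 4.55 and 3.41 on the control arrays and 5020 and 4250 on the dSETD3 KO arrays. The genotypes were far apart and the 2 dSETD3 KO arrays close together, and the signal was at least 403-fold higher in dSETD3 KO. On the log2 scale this bound was 8.66, against 6.31 with normexp and 6.75 with the second deposited table. No other probe carried this transcript's identifier or this gene's symbol here, so the on-off reading of an essential enzyme rests on 1 probe. Probes of the gene under another identifier without a symbol could have been missed. The only other synthetase gene with a name here was Aats-ala-m, the mitochondrial alanyl-tRNA synthetase, which control flies did express: 417 and 385 in control and 1650 and 1130 in dSETD3 KO, a log2 difference of 2.05 ± 0.11 (standard error from limma's fit over all tested probes). Both were named by the list of changed probes, so the family as a whole was not analysed here.

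CG30343 (FBtr0088594, now Tsen15) carries the name of a subunit of the endonuclease that cuts introns out of tRNA precursors. The probe of the set, A_09_P206315, gave 2.98 and 2.97 in control and 659 and 444 in dSETD3 KO, at least 47.2-fold higher. The transcript's other probes gave different readings, described further on. Ribosomal protein genes, a larger group of the translation machinery, had 18 named genes with 23 probes. None of these was in the set, and of the 22 that could be tested limma called 4 higher (adjusted p under 0.05) and 0 lower, where 3.96% of all tested probes were called higher, with a median log2 difference of 0.10. The list of changed probes had named 4 of the 23. Every limma call given here needs both control arrays: without control replicate 1, and without control replicate 2, limma called no probe in either direction, while 7202 and 4823 of the 20916 had an unadjusted p under 0.05.

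Tep2 (FBtr0079510) belongs to the thioester-containing proteins, secreted relatives of the complement factors that bind to microbes. Both probes of the transcript on the array were in the set. A_09_P064071 gave 13.9 and 12.6 in control against 1040 and 1080 in dSETD3 KO, and A_09_P213450 gave 3.52 and 3.49 against 268 and 321. The replicates of each genotype lay within a narrow range for both probes, and the bounds were 92.2-fold and 25.6-fold. At the first probe control replicate 1 was itself at the floor, and at the second both control arrays lay under it. No other Tep gene had a named probe. Among the immune-induced peptides, which the fat body secretes after infection, 3 had a named probe, none of them in the set. IM1 read 199 and 423 in control and 2760 and 1020 in dSETD3 KO, a log2 difference of 2.81 ± 0.47 that passed limma's threshold. IM23 and IM10 had log2 differences of 0.24 and -0.70 and were not called, so 1 of the 3 was called higher, where 3.96% of all tested probes were, and that call too needed both control arrays.

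Ir7c (FBtr0071087) codes for an ionotropic receptor, a class of ion channel with which flies taste and smell. Its signal was 7.64 and 10.3 in control and 220 and 144 in dSETD3 KO, at least 15.5-fold higher. Of 15 named probes for ionotropic, gustatory and odorant receptors, 12 were detected on both arrays of neither genotype. The other 2 that could be tested had lower values in dSETD3 KO: Ir62a had a log2 difference of -0.55 and was not called, and Ir47a was detected in control alone, at 33.9 and 47.6 against 3.82 and 3.63. The named receptors were thus mostly undetected in whole flies, and among them Ir7c was the 1 detected in dSETD3 KO flies only. It was also the 1 named by the list of changed probes, so it has a name because it changed. The receptors as a group were not analysed here.

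CG9486 (FBtr0079243, now AANATL2) is named for arylalkylamine N-acetyltransferases, enzymes that acetylate amines such as dopamine and serotonin in insects. The probe of the set gave 11.5 and 11.1 in control and 165 and 155 in dSETD3 KO, at least 14.0-fold higher, with 4 values that hardly varied within a genotype. Another probe of CG9486, described further on, was detected in control flies and differed less between the genotypes.

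CG30098 (FBtr0087168) and CG33465 (FBtr0301048) have the synonyms SP221 and SPH241, given to a serine protease and to a serine protease homolog. CG30098 gave 7.35 and 3.33 in control and 75.4 and 44.8 in dSETD3 KO, at least 5.07-fold higher. CG33465 gave 4.18 and 4.99 in control and 57.4 and 42.3 in dSETD3 KO, at least 4.30-fold higher. Both were dim. Of the digestive serine proteases, Jon44E and kappaTry had a name here, both from the list of changed probes, and 2 of their 3 probes were called lower, where 16.9% of all tested probes were. The log2 difference was -3.72 ± 0.37 at the probe of Jon44E, and -2.14 ± 0.38 (called) and -0.67 ± 0.23 (not called) at those of kappaTry.

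The remaining named members have no role stated here. CG16743 (FBtr0080147) gave 6.35 and 4.67 in control and 920 and 668 in dSETD3 KO, at least 68.4-fold higher. The probe of CG18327 (FBtr0087522) in the set gave 3.32 and 3.44 in control and 233 and 126 in dSETD3 KO, at least 15.0-fold higher. Another probe of CG18327, described further on, was detected in control flies and was not called. CG43085 (FBtr0333122) had both of its probes in the set. Its A_09_P196230 gave 8.95 and 4.43 in control and 91.2 and 54.7 in dSETD3 KO, and A_09_P209545 gave 8.71 and 8.35 against 58.9 and 45.9. The bounds of the pair were 6.17-fold and 4.54-fold.

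CG33792 (FBtr0332251) and CG15711 (FBtr0087167) were near the lower end of the set. CG33792 gave 3.45 and 4.33 in control and 42.3 and 27.6 in dSETD3 KO, at least 2.98-fold higher. CG15711 gave 15.2 and 18.8 in control and 20.3 and 22.6 in dSETD3 KO, a bound of 1.54-fold. Its control signals were above the arrays' floor and only a little under its dSETD3 KO signals, so the flags, more than the signals, place it in the set.

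Of the transcripts without a symbol, the 5 with the highest mean dSETD3 KO signal were FBtr0074868, FBtr0079973, FBtr0085078, FBtr0084827 and FBtr0084242. FBtr0074868 gave 15.6 and 5.52 in control and 481 and 1170 in dSETD3 KO, at least 61.9-fold higher. FBtr0079973 gave 2.97 and 2.99 in control and 238 and 92.5 in dSETD3 KO, at least 12.9-fold higher. In both, the 2 dSETD3 KO arrays differed from each other by over 2-fold, in opposite directions. FBtr0085078 gave 5.95 and 3.47 in control and 233 and 83.1 in dSETD3 KO, at least 12.1-fold higher. FBtr0084827 gave 5.12 and 5.49 in control and 173 and 88.9 in dSETD3 KO, at least 10.8-fold higher. FBtr0084242 gave 9.47 and 8.37 in control and 76.0 and 99.8 in dSETD3 KO, at least 7.60-fold higher. FBtr0085078 also had an other probe, described further on, which was lower in dSETD3 KO and not called.

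The other 13 transcripts without a symbol were dim, with dSETD3 KO signals between 20.6 and 130 and bounds from 1.48-fold to 5.80-fold. The 1.48-fold belongs to FBtr0079779, singled out after its values were seen. It gave 26.9 and 21.5 in control and 37.0 and 23.4 in dSETD3 KO, and was the 1 probe of 32 whose signals overlapped between genotypes. Relative to the 75th percentiles its dSETD3 KO values were both higher, so that all 32 probes were apart on that scale. Only 29 of the 32 were apart with the second deposited table, whose intensities have no background subtracted. The rule that chose the members favours such a separation, and the share of all probes that were apart was not analysed here. The probes of the set differ in how near the background their control signals lay. The weaker flag, a positive signal that differs from the local background, was set on both control arrays for 17 probes, on 1 for 7 and on neither for 8. Those 8 were the probes of CG16743, CG30343, CG18327, CG33465, FBtr0079973, FBtr0084942 and FBtr0071019 and the A_09_P213450 probe of Tep2.

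The dSETD3 KO arrays differed from each other by 1.04-fold to 4.28-fold over the 32 probes, with a median of 1.37-fold. The ratio was over 2 for 5 probes. It was highest for FBtr0088135, at 105 and 24.6 (control 8.88 and 13.9), and next for FBtr0084942, at 130 and 33.9 (control 2.89 and 4.20). dSETD3 KO replicate 1 had the higher signal in 23 of 32. Once the 75th percentiles were subtracted, the same replicate was higher in 14 and replicate 2 in 18, so the lean of the raw signals went with the dimness of replicate 2. Within an array the spread was smaller. The 19 probes printed in 2 spots gave 38 pairs of spots on the dSETD3 KO arrays, whose signals differed by a median of 1.07-fold and at most 1.47-fold. The other 13 probes had 1 spot.

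Other probes were sought by the same FBtr identifier or gene symbol, and only 2312 of the 21752 FBtr probes had a symbol here. Probes of the same gene under another identifier without a symbol could therefore have been missed. Of the 30 transcripts, 20 were seen by a single probe under their identifier and 2 (Tep2 and CG43085) by a pair that both belonged to the set. The remaining 8 had 10 other probes outside the set. These readings come from the same flies and the same comparison that chose the set, and are given as a description. Of the 10, 8 were well above background on all 4 arrays, and 9 could be tested. Each of the 8 transcripts had an other probe well above background on at least 1 control array. Detection in dSETD3 KO alone was there a reading of the probe, not of the transcript. In limma's fit 5 of the 9 were called higher in dSETD3 KO at an adjusted p under 0.05, against 829 of the 20916 tested probes, and 3 of the 10 were at least 2-fold higher, where 1.64% of all tested probes were. The other probe of FBtr0073006 counts among the 5 and among the 3. It was well above background on 1 control array only, so a high value in dSETD3 KO was a condition of its being tested. The median log2 difference of the other probes was 0.53, with a range from -0.40 to 1.61. Without control replicate 1, and without control replicate 2, limma called none of them and none of all tested probes higher, while 6 of the 9 had an unadjusted p under 0.05 in each case, and the methods' t-test also called none after adjustment. Of all calls in both directions 19.0% were higher in dSETD3 KO, a share that rose to 37.1% with quantile normalization and to 76.1% with the median of each array, which shifted the median of all tested probes to 0.32.

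At 3 transcripts the other probe was called higher too, with a log2 difference near 1 or above it. The other probe of FBtr0300706 gave 22.3 and 29.1 in control and 72.6 and 43.9 in dSETD3 KO, a log2 difference of 1.42 ± 0.15, and that of FBtr0073006 gave 16.5 and 22.3 against 43.0 and 37.0, or 1.33 ± 0.17. Their probes in the set had bounds of 1.22 and 1.36 and measured differences of 2.31 and 2.90. The other probe of CG9486 gave 214 and 269 in control and 446 and 326 in dSETD3 KO, a log2 difference of 0.95 ± 0.11, smaller than the bound of 3.81 at its probe in the set. The other probes of FBtr0300706 and CG9486 were well above background on both control arrays, and that of FBtr0073006 on 1 of them.

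At the others the probes of a transcript gave different readings. CG30343 had 2 more probes: A_09_P058131 gave 18.8 and 20.8 in control and 56.5 and 43.7 in dSETD3 KO (1.61 ± 0.09, called higher), and A_09_P161570 gave 152 and 136 against 194 and 122 (0.38 ± 0.14, not called). The probe of this transcript in the set had a bound of 5.56. CG18327 was similar, with 490 and 572 in control and 686 and 470 in dSETD3 KO at its other probe (0.38 ± 0.09, not called) and a bound of 3.91 in the set. The on-off reading of these 2 genes was thus that of 1 probe each, and both had another probe that was detected in control flies and whose signals overlapped between genotypes.

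FBtr0085078 had an other probe with 45.7 and 30.3 in control and 23.3 and 23.4 in dSETD3 KO, a log2 difference of -0.40 ± 0.31 that was not called, against a bound of 3.60 in the set. It was the 1 transcript whose other probe pointed the opposite way. The other probe of FBtr0071019 gave 763 and 784 in control and 1140 and 745 in dSETD3 KO (0.53 ± 0.09, called higher). FBtr0299805 had an other probe at 45.4 and 52.7 against 77.0 and 43.3 (0.52 ± 0.15, not called) and one too dim to be tested, at 10.3 and 10.5 against 14.1 and 7.11. Why the probes of a transcript differed was not tested.

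**Figure D3:**
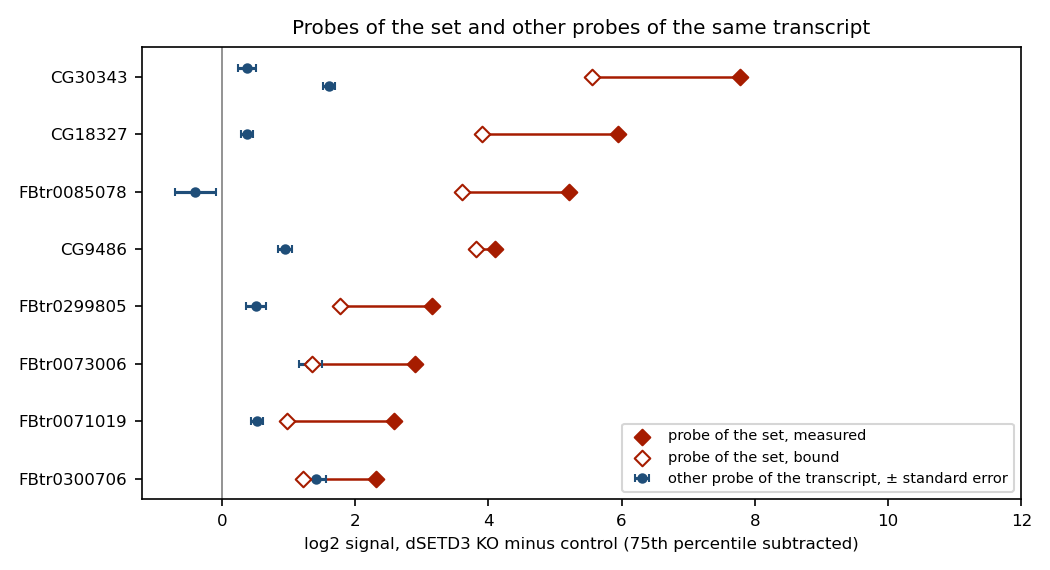
log2 difference between dSETD3 KO and control (75th percentile of each array subtracted) for the 8 transcripts with other probes. Diamonds show the probe in the set, filled for the measured difference and open for the bound, and circles show the 9 other probes that could be tested with the standard error of limma's fit. The circles lie between -0.40 and 1.61, and all lie below the measured difference of the probe in the set.

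Just inside the minimum signal were CG15711 (20.3 and 22.6 in dSETD3 KO, 15.2 and 18.8 in control), FBtr0331594 (20.6 and 25.5, with 16.7 and 12.9 in control) and FBtr0083636 (20.7 and 25.6, with 9.25 and 11.6 in control). Just outside were FBtr0085466 (64.1 and 19.2, with 4.98 and 4.99 in control), FBtr0306290 (19.8 and 18.5, with 9.66 and 8.17 in control) and FBtr0088564 (25.1 and 18.3, with 10.5 and 4.83 in control). In all, 48 probes met the flags, and 13 of them were under the minimum. FBtr0085466 and FBtr0088564 fell outside through dSETD3 KO replicate 2 alone.

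**Figure D4:**
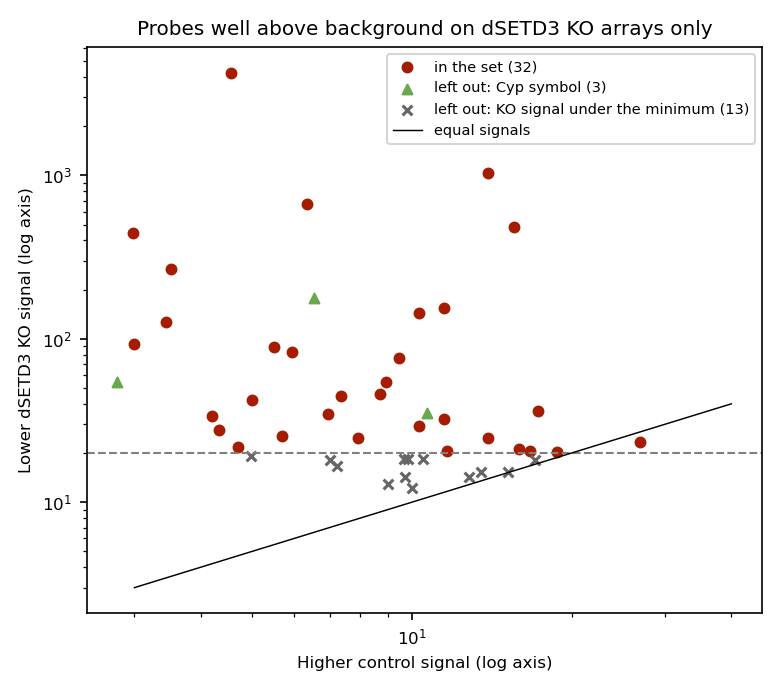
The lower of the 2 dSETD3 KO signals against the higher of the 2 control signals (both log axes) for the 48 FBtr probes detected on dSETD3 KO arrays only. Circles are the 32 probes of the set, triangles the 3 probes left out for a Cyp symbol and crosses the 13 under the minimum of 20 (dashed line), and points near the solid line of equal signals had little difference between genotypes.

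The Cyp probes left out had the same pattern as the members. Cyp4p2, a cytochrome P450 gene, gave 3.61 and 6.53 in control against 266 and 178 in dSETD3 KO at A_09_P005646, and 2.70 and 2.79 against 83.2 and 54.4 at A_09_P148805. In gene order on the RefSeq annotation (assembly GCF_000001215.4), CG30343 and Cyp4p2 lie close together on chromosome arm 2R with Cyp4p1 and Cyp4p3 between them. CG30098 and CG15711 are also near each other on 2R, with 1 coding gene, CG6262, between them. These were the closest pairs among the genes placed, and whether members lie closer together than other genes was not tested. Of the 12 named members 7 lie on 2R, 3 on 2L, 1 on 3L and 1 on X. The 18 transcripts without a symbol were not placed, so these counts do not describe the whole set. The supplementary list of array probes, held in its first part, itself leans to 2R. Of its 1483 named transcripts that could be placed, 917 (61.8%) lie there, and it named 3 of the 12 members. Ir7c is the 1 named member on the chromosome of dSETD3, with 68 coding genes between it and CG32732.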

How the data were processed

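Of the 4 arrays the authors deposited the Agilent Feature Extraction output (10.7 per the labels), with background-corrected intensity values, not normalized between arrays, and detection flags. A second deposited table holds 1 intensity per probe and array, used as an alternative. Members and gene lists were chosen with earlier results of these data known. Control spots (1417 of 45019) and outlier spots (45 to 73 per array) were left out, spots of a probe were averaged on the log2 scale, and flags were taken by majority. Tests used log2 intensity minus the 75th percentile of each array, lmFit and eBayes (limma 3.58.1 in R 4.3.3), fitted genotype alone, and adjusted p by Benjamini-Hochberg over 20916 probes, those detected on both control or both dSETD3 KO arrays. The fit was tested on simulated data. Tables used Python 3.11.15, pandas 2.3.3 and numpy 2.4.6. Named in the text were the members with a symbol, the 5 unnamed ones with the highest mean dSETD3 KO signal, their other probes, 3 probes on each side of the minimum, and CG32732. The authors' own fold changes and p-values in the supplementary lists were not used. The genome build of the probe annotation is older than that of RefSeq, so no coordinates are given. Same-numbered replicates did not deviate together (correlation -0.21 over 20916 probes).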

Additional observations from a re-analysis of the deposited data

How the results depend on the processing

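The set of 30 transcripts had 43 at a minimum signal of 10, 13 at 50, 8 at 100, 27 when any spot sufficed, 8 with the weaker flag, 29 after scaling to equal 75th percentiles (26 of them shared) and 43 from the median signal minus the local background. Leaving out a replicate, which only loosens the rule, gave 37 to 57, with 57 without dSETD3 KO replicate 2 and 47 without control replicate 1. The 181 detected in control only became 276 at 10, 7 at 50, 2 at 100 and 7 with the weaker flag, and 231 to 390 without a replicate, with 343 without control replicate 1 and 390 without dSETD3 KO replicate 1. Of the 829 probes called higher among all tested, quantile normalization gave 1464, the median of each array 8365, normexp 425, no filter on dim probes 38, the replicate block 392, the crossed replicate block (chosen after seeing the data, since the correlation of same-numbered replicates was -0.21) 329 and the methods' t-test 0 (6381 at an unadjusted p under 0.05). Leaving out a replicate gave 0 to 1002, and 0 without control replicate 1 (7202 unadjusted) or control replicate 2 (4823 unadjusted). Of the 5 other probes called higher, the median of each array gave 8, normexp 3, no filter 0 (7 unadjusted), the methods' t-test 0 (6 unadjusted), the replicate block and the crossed one 4, and leaving out a replicate 0 to 6. The cause of these moves was not tested. The 19 bounds given for named members and the 5 without a symbol, whose sign the choice of members all but fixes, ran from 0.62 to 8.66 on the log2 scale, from 0.34 to 6.31 with normexp (18 moved), from 0.31 to 6.75 with the deposited value table (18 moved), from 0.83 to 8.69 with quantile normalization (8 moved) from 0.92 to 8.96 with the median of each array (11 moved) and from 0.29 to 8.78 without a replicate (3 moved without either control array).

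Dim signals limit the set: 24 of 32 bounds rest on the floor of the array on both control arrays. In addition, 13 probes have 1 spot and 20 transcripts a single probe under their identifier.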

Other observations

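Probes without an FBtr identifier, most of them designed on cDNA clones or other accessions, met the same flags and the same minimum in 25 of 10410 cases, or 0.240%. Only 2 of them have a gene name here (asRNA:CR11538 and CR34046). A probe of SD03311 gave 5.32 and 2.97 in control and 6970 and 1650 in dSETD3 KO, at least 296-fold higher. SD03311 had 2 probes on the array, and the other did not meet the flags and the minimum. Its values are not given here, so this fold is the reading of 1 probe. SD07650 gave 3.78 and 9.84 in control and 765 and 1590 in dSETD3 KO, at least 96.3-fold higher. S77925 gave 3.02 and 2.98 in control against 405 and 98.3, at least 17.4-fold higher, and RE73276 gave 5.15 and 6.36 against 96.9 and 109, at least 8.98-fold higher. The 2 dSETD3 KO arrays differed by over 2-fold from each other at the first 3 of these and lay close together at RE73276. These 4 were picked after their values were seen, and the genes behind them are not named here.

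Cyp4e3, the other cytochrome P450 gene left out of the set, was detected in control flies by its other probes. Its probe with the on-off pattern was not well above background in control and gave 82.1 and 34.9 in dSETD3 KO, and the others gave 51.7 and 76.4 against 306 and 159, and 31.9 and 42.0 against 318 and 158.

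Probes of a transcript also disagreed among the ribosomal protein genes, none of which was in the set. RpS23, a protein of the small ribosomal subunit, had a probe, A_09_P147930, that was at 17.0 and 16.1 in control and at 953 and 701 in dSETD3 KO (log2 difference 5.91 ± 0.11), just above the floor in control and so outside the set, while the transcript's other probe, A_09_P007581, gave 142000 and 140000 against 133000 and 106000 (0.03 ± 0.11). RpL17, of the large subunit, had log2 differences of 1.95 ± 0.11 at A_09_P149115 and 0.11 ± 0.09 at A_09_P067721. These 2 genes were picked after their values were seen, and the cause was not tested.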
